A study of Mus musculus with 6 samples.

Results

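T cells and natural killer (NK) cells of mouse white adipose tissue were followed through 39 genes that these lymphocytes use for antigen recognition, signalling, lineage control and killing. The genes were taken by symbol from a fixed list and paired with Ensembl identifiers, and all 39 were found among the 22040 genes of the table. Of the 39, 36 reached 10 counts in at least 3 libraries, and 35 passed the expression filter of the test. RNA sequencing covered 3 control samples (CTR1, CTR2 and CTR3), from mice given saline by intraperitoneal injection, and 3 samples (Rb1_1, Rb1_2 and Rb1_3) from mice injected with 14 mg/kg per day of ginsenoside Rb1, a triterpene saponin of ginseng. The sources used here do not name the fat depot, strain, age, diet or duration of dosing, and the labels do not say whether each sample is 1 mouse or a pool. The comparison asks how the transcripts of the tissue differ after Rb1.

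The T cell receptor recognises peptide held by MHC molecules and signals through the CD3 chains and the zeta chain, whose tails are phosphorylated by the kinase Lck and bound by the kinase ZAP-70. CD4 and CD8 are coreceptors that mark the helper and cytotoxic T cell lineages, and NK cells, which lack the T cell receptor, kill through the same perforin and granzymes as cytotoxic T cells. White fat holds T cells, regulatory T cells, innate lymphoid cells and NK cells between its adipocytes, and these cells are known to shape the inflammatory state of its macrophages.

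The promoters of the 3 clustered CD3 genes, of Il7r and of Gzma are shown because these genes differed in whether their groups overlapped. All 5 were lowest in Rb1_2, as most of the list was. The groups overlapped for the 4 genes other than Il7r, as for most of the list, and did not overlap for Il7r. Each sequence holds the 250 bases before the RefSeq transcript start on GRCm38.p6, written 5′ to 3′ on the gene's strand. Capitals mark matches on either strand to the RUNX core TGTGGT, the ETS core AGGAAG, the TCF/LEF core CTTTGA and the GATA core AGATAA, which are short cores of transcription factor families of lymphocytes, and no 2 matches overlap in these 5 windows.
Cd3g promoter, chr9:44980432-44980681, minus strand: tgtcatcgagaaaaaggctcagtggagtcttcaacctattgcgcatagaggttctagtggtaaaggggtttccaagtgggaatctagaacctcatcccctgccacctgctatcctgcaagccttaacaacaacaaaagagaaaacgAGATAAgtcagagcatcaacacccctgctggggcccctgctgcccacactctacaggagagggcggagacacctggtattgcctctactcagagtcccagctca
Cd3d promoter, chr9:44981536-44981785, plus strand: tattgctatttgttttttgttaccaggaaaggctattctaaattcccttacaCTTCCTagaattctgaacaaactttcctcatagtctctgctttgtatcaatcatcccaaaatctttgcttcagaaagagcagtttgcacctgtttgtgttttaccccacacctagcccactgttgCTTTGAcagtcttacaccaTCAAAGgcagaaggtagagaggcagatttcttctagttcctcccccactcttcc
Cd3e promoter, chr9:45009612-45009861, minus strand: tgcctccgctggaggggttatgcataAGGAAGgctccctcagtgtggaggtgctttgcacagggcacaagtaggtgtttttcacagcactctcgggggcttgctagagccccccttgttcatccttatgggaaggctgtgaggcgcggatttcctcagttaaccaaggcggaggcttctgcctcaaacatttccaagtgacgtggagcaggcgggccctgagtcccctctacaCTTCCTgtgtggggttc
Il7r promoter, chr15:9529877-9530126, minus strand: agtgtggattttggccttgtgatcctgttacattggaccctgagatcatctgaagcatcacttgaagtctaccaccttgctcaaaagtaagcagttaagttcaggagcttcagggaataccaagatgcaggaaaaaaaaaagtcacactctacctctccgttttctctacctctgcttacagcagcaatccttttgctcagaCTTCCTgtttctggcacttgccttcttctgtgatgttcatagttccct
Gzma promoter, chr13:113100982-113101231, minus strand: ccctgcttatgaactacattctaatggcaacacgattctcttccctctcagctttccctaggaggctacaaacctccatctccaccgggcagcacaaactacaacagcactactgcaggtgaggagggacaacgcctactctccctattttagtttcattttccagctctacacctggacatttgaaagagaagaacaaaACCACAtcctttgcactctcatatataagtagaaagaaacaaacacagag
Cd3g and Cd3d are transcribed away from each other, with 1355 bases between their starts. Cd3d held 1 ETS match and 2 TCF/LEF matches, Cd3g 1 GATA match, Cd3e 2 ETS matches, Il7r 1 ETS match and Gzma 1 RUNX match. Over the 30 of 39 genes with a promoter in the RefSeq table, some with several starts (41 windows in all), 12 genes held the RUNX core, 17 the ETS core, 6 the TCF/LEF core and 3 the GATA core. Counted over windows, the shares were 31.7%, 46.3%, 14.6% and 7.32%, against 14.0%, 29.5%, 13.8% and 9.99% of all 32851 promoter windows. Promoters of Cd2, Cd4, Cd6, Cd7, Cd8b1, Cd28, Icos, Il2rb and Skap1 were not analysed here. A match describes letters in this window and is not evidence of binding.

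Total counts ran from 15440339 to 24501446 per library, and adipocyte genes marked every library as fat. Adipoq, which encodes adiponectin, stood between 1270 and 1670 FPKM (fragments per kilobase of gene, scaled to library size, as deposited). The 14 skeletal muscle genes of a marker list summed to 454 and 498 CPM (counts scaled to library size) in CTR1 and CTR3. They summed to 236, 69.0 and 126 CPM with Rb1, and to 33000 CPM in CTR2. Counts over the T and NK cell genes, and the fold changes of many of them, are therefore given without CTR2 too. Leaving out CTR2 did not make the groups alike in muscle transcripts. All 14 muscle genes still had negative log2 fold changes (median -2.24), against 48.0% of all tested genes. The part of muscle tissue in the lymphocyte values was not tested.

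Transcripts of T and NK cells were scarce. Mean levels over the 6 libraries lay between 0.0677 FPKM for Txk, a kinase of the Tec family, and 6.48 FPKM for Il2rg, the gamma chain that several cytokine receptors share, with a median of 0.574 FPKM over the 35 tested genes. For 24 of the 35 the mean was under 1 FPKM. In controls 6 of the 35 averaged over 2 FPKM, namely Il2rg, Il7r, Il2rb, Gzma, Nkg7 and Gzmb, and without CTR2 only the first 3 of these did. A count of 0 allows up to 3 counts, equal to between 0.122 and 0.194 CPM at these depths. That was the case of Cd3d in Rb1_2, Ctla4 in Rb1_3, Foxp3 in Rb1_2 and Trat1 in CTR3, Rb1_1 and Rb1_2.

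**Figure D1:**
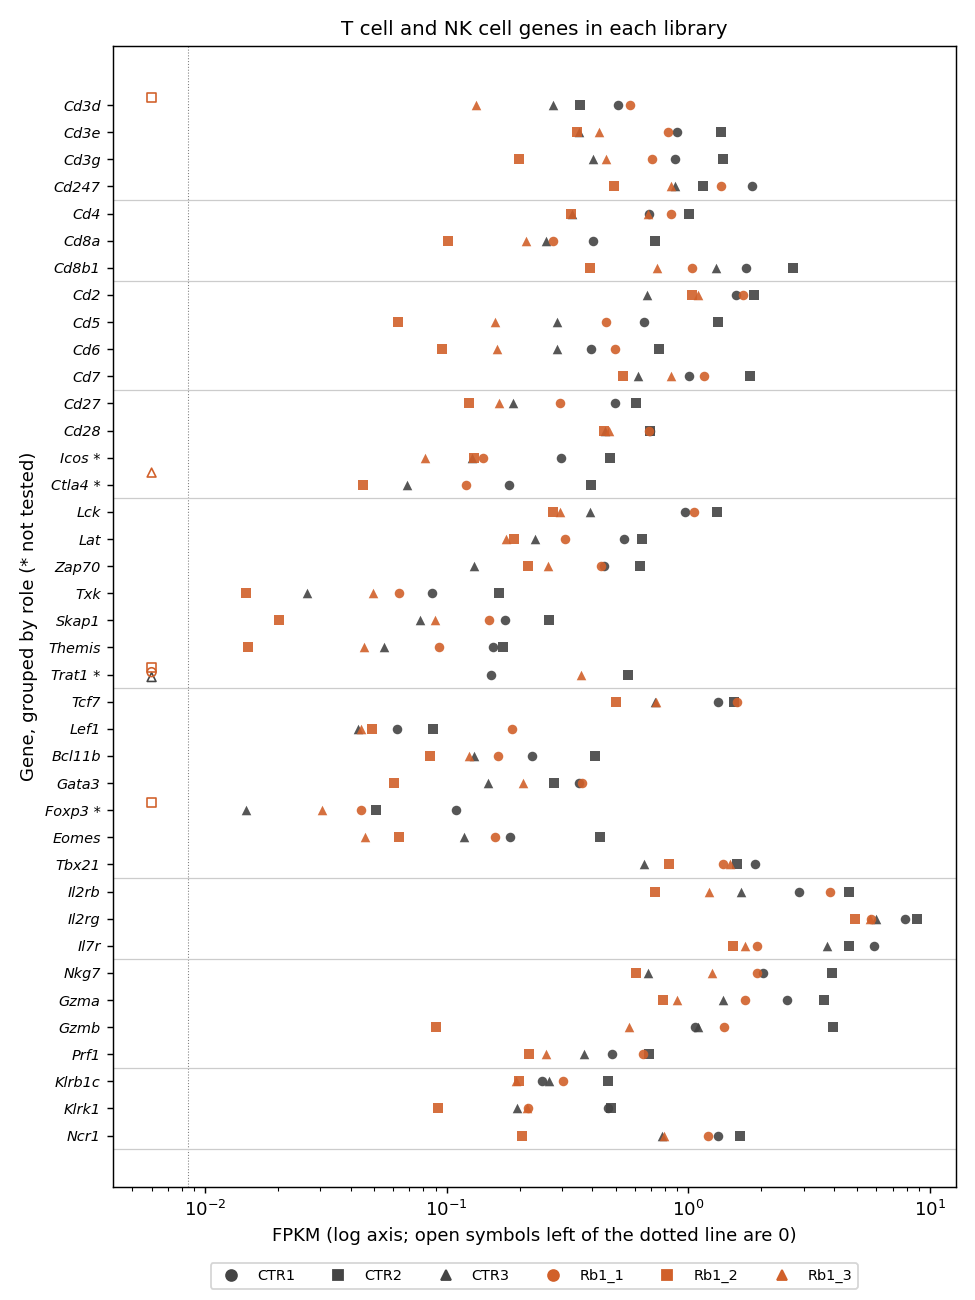
FPKM (x axis, log scale) of each of the 39 T and NK cell genes (y axis, grouped by role) in the 6 libraries, with controls in grey, Rb1 in orange and the replicate number as the symbol. Grey squares (CTR2) mostly lie farthest right and orange squares (Rb1_2) farthest left, while orange circles (Rb1_1) lie among the controls.

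Most T and NK cell genes had lower fitted levels after Rb1, and none of the 35 tested genes passed the test over all genes. In the edgeR quasi-likelihood test 34 of 35 log2 fold changes were negative, with a median of -0.70, against 48.7% negative and a median of 0.01 over 14093 tested genes. At an adjusted p under 0.05, 0 of 35 were lower or higher, where the background is 0% lower and 0.0071% higher. At an unadjusted p under 0.05, 7 of 35 (20.0%) were lower and 0 were higher, against backgrounds of 7.54% and 4.01%. The 2 groups were separate in FPKM for 3 of 35 (8.57%), all lower, against a background of 10.5% lower and 5.48% higher. These 3 were Il7r, Il2rg and Cd8b1. DESeq2 called 1 of 35, Il7r, at a background of 2.18% lower and 0.589% higher. In whole tissue, fewer lymphocytes and less of a transcript per lymphocyte cannot be told apart.

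Leaving out single libraries moved the median widely. Without CTR2 it was -0.40 over 35 tested genes, with 29 of 35 negative against 48.0% of all genes, and 1 of 35 (2.86%) was lower at an unadjusted p under 0.05 against a background of 5.68% lower and 2.64% higher. That gene was Il7r. None of the 35 passed at an adjusted p under 0.05 without CTR2, at a background of 0% lower and 0.00703% higher. Genes separate in FPKM over all 6 libraries are bound to be separate without CTR2, so that result for the same 3 genes is no further support. No other gene of the 35 became separate, which left 8.57% lower against a background of 15% lower and 8.55% higher. Cd4, Cd2, Cd7, Zap70 and Tbx21 changed sign without CTR2, to values between 0.03 and 0.35. The median was -1.17 without CTR3, -1.29 without Rb1_1 and -0.47 without Rb1_2, each over 37 tested genes. edgeR called none of the genes in any of these fits. Without CTR3, 16 of 37 had an unadjusted p under 0.05 in either direction, against 1858 of all 14278 tested genes. Without Rb1_1 it was 16 of 37, against 1706 of 14256, and without Rb1_2 it was 2 of 37, against 1321 of 14322.

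**Figure D2:**
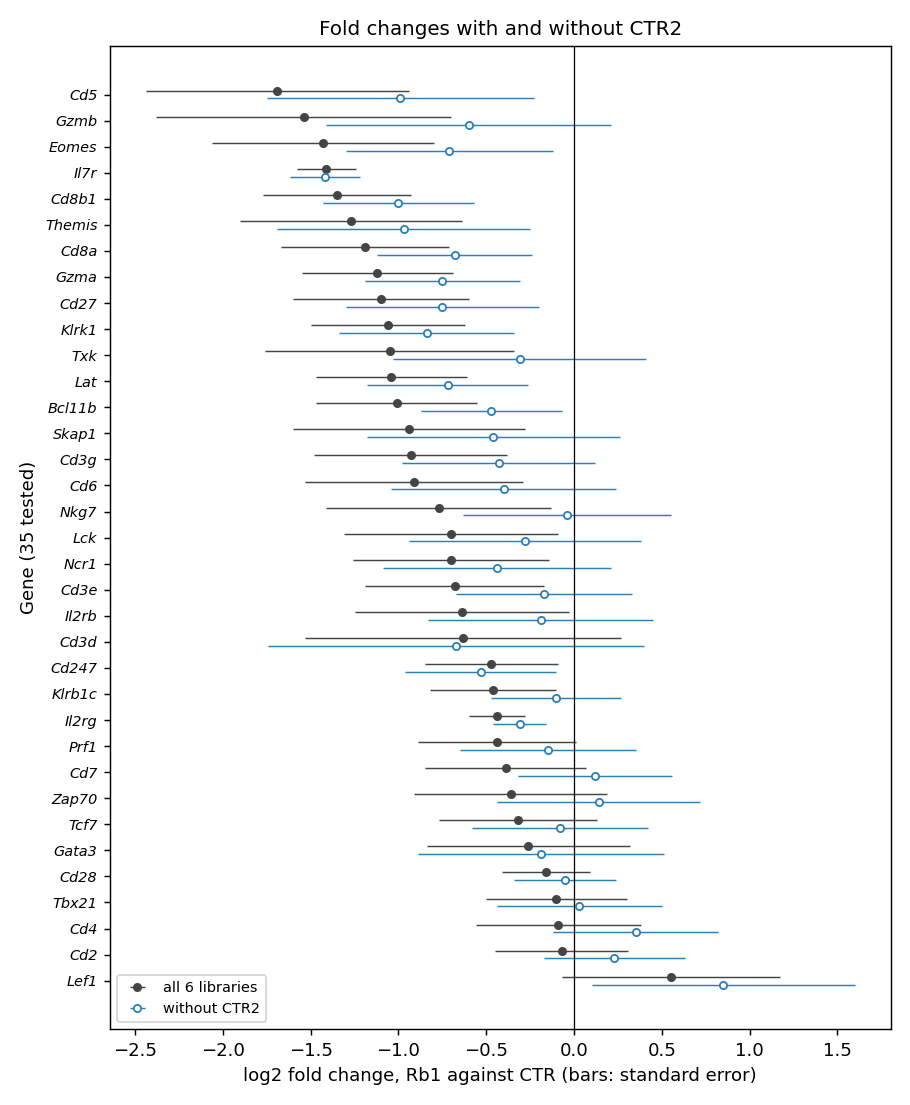
Log2 fold change of Rb1 against control (x axis) for the 35 tested genes (y axis), with bars of 1 standard error, from all 6 libraries (filled) and without CTR2 (open). Il7r kept its value and a short bar, at -1.41 and -1.42, while most other genes moved towards 0 without CTR2.

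Most of the genes shared the library with their highest level and the library with their lowest, while the libraries between were ordered differently from gene to gene. CTR2 held the highest FPKM for 28 of 35 genes (80.0%), against 16.8% of all tested genes. Rb1_2 held the lowest for 28 of 35, against 27.8% of all tested genes, and 23 of 35 had both extremes, against 6.14%. Rb1_1 lay above CTR3 for 32 of 35 (91.4%, against 60.8% of all genes), the exceptions being the 3 genes whose groups did not overlap. It also lay above CTR1 for 13 of 35, among them Cd3d, Cd4, Cd2, Lck, Il2rb and Gzmb, which is 37.1% against 47.5% of all genes. Rb1_3 lay above CTR3 for 16 of 35, or 45.7% against 44.8% of all genes. These counts describe the same 6 libraries as the fold changes and are no separate evidence on Rb1.

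**Figure D3:**
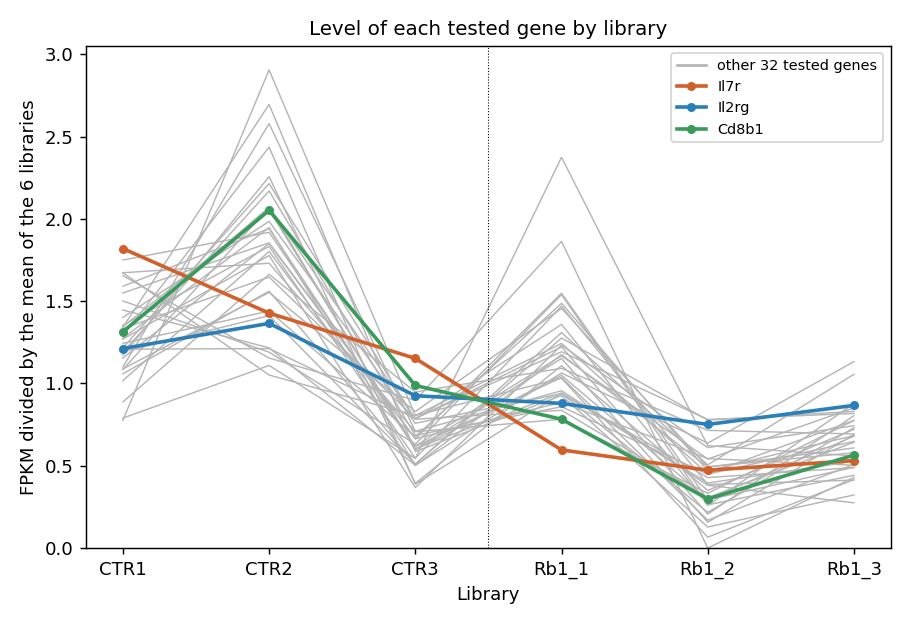
FPKM of each of the 35 tested genes divided by its mean over the 6 libraries (y axis), by library (x axis, controls left of the dotted line), with 1 line per gene joining its values. Of the 35 lines 28 are highest in CTR2, 28 are lowest in Rb1_2 and 32 are higher in Rb1_1 than in CTR3, whereas Il7r (orange) has its 3 control values above its 3 Rb1 values.

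The CD3 and zeta chains, which carry the receptor's signal into the cell, overlapped between groups. Cd3e was at 0.897, 1.37 and 0.353 FPKM in CTR1, CTR2 and CTR3 and at 0.827, 0.346 and 0.428 FPKM in Rb1_1, Rb1_2 and Rb1_3. CTR3 and Rb1_2 were lowest, and Rb1_1 lay near CTR1. The log2 fold change was -0.68 (SE 0.51, edgeR adjusted p = 0.679) and -0.17 without CTR2. Cd3g followed at 0.876, 1.39 and 0.401 FPKM in controls and 0.704, 0.199 and 0.456 FPKM with Rb1 (log2 fold change -0.93, and -0.43 without CTR2). Cd3d, at 0.509, 0.355 and 0.276 FPKM in controls and 0.573, 0 and 0.132 FPKM with Rb1, rested on 0 to 25 counts per library. Cd247, the zeta chain that NK cells use as well, was at 1.83, 1.15 and 0.881 FPKM in controls and 1.36, 0.494 and 0.849 FPKM with Rb1. Its log2 fold change was -0.47 (-0.53 without CTR2) and its edgeR adjusted p 0.694. Cd247 shares exon positions with Pou2f1 on the other strand and Cd3e with an antisense gene, so both values are uncertain to that extent. The 3 CD3 genes lie within chr9:44969572-45009627 on GRCm38.

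The CD8 and CD4 coreceptors differed in how far their groups lay apart. Cd8b1, the CD8 beta chain of conventional cytotoxic T cells, was at 1.73, 2.70 and 1.30 FPKM in controls and 1.03, 0.393 and 0.743 FPKM with Rb1. All 3 Rb1 values lay under the lowest control, on 31, 9 and 27 counts against 49, 94 and 39. The fitted log2 difference was -1.35 (SE 0.42, edgeR adjusted p = 0.309), which did not pass, and -1.0 without CTR2. Cd8a, the alpha chain, which some dendritic and NK-related cells also carry, was at 0.401, 0.730 and 0.258 FPKM in controls and 0.276, 0.101 and 0.212 FPKM with Rb1. Rb1_1 passed CTR3 by a narrow margin, and the log2 fold change was -1.19 (edgeR adjusted p = 0.422), or -0.68 without CTR2. Cd4, the helper cell coreceptor, overlapped throughout, at 0.685, 1.01 and 0.330 FPKM in controls and 0.847, 0.327 and 0.683 FPKM with Rb1. The fitted log2 difference was -0.09 (SE 0.47) with all libraries and 0.35 without CTR2. Cd8b1 lies at chr6:71322788-71337494 and Cd8a beside it at chr6:71373427-71379173, both on the plus strand, while Cd4 lies at chr6:124864692-124888221 on the minus strand.

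Surface glycoproteins and costimulatory receptors showed the same mixing of libraries. Cd5, a brake on receptor signalling, had the most negative log2 fold change of the 35 with all libraries, -1.69 (SE 0.75, edgeR adjusted p = 0.454). Without CTR2 it was -0.99, and Il7r was the most negative at -1.42. It was at 0.657, 1.32 and 0.287 FPKM in controls and 0.454, 0.0626 and 0.158 FPKM with Rb1, where the 0.0626 FPKM of Rb1_2 is 2 counts. Cd6, its relative, had -0.91 (-0.4 without CTR2), and the adhesion receptor Cd2 and Cd7 had -0.07 and -0.39. Of the costimulatory receptors, Cd27 had -1.10 and Cd28 -0.16, with edgeR adjusted p of 0.468 and 0.854. Icos reached 10 counts in 3 libraries without passing the test's filter, at 20, 39 and 9 counts in controls and 10, 7 and 7 with Rb1. Ctla4, the inhibitory counterpart of Cd28, had 10, 27 and 4 counts in controls and 7, 2 and 0 with Rb1.

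Signalling genes downstream of the receptor overlapped between groups as well. Lck, the kinase that starts receptor signalling, was at 0.968, 1.31 and 0.390 FPKM in controls and 1.05, 0.276 and 0.295 FPKM with Rb1. Rb1_1 stood above CTR1 and far from the other Rb1 libraries, and the log2 fold change was -0.70 (SE 0.61, edgeR adjusted p = 0.727), or -0.28 without CTR2. Lat, the adaptor phosphorylated by ZAP-70, was at 0.539, 0.645 and 0.231 FPKM in controls and 0.308, 0.189 and 0.175 FPKM with Rb1. Only Rb1_1 exceeded a control, CTR3, and the log2 fold change was -1.04 (edgeR adjusted p = 0.427), or -0.72 without CTR2. Zap70 itself had -0.36 and Skap1, an adaptor of integrin activation, -0.94 (-0.46 without CTR2). Txk had -1.05 (-0.31 without CTR2) and Themis, which tunes receptor signals in thymocytes, -1.27. The edgeR adjusted p-values of Zap70, Skap1, Txk and Themis lay between 0.507 and 0.855. Trat1, an adaptor that binds the receptor complex, had 2, 9 and 0 counts in controls and 0, 0 and 6 with Rb1.

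Transcription factors of the lineages held the 1 positive value. Lef1, a partner of Tcf7 in T cell development, had a log2 fold change of 0.55 (SE 0.62) and was highest in Rb1_1, at 0.187 FPKM against 0.0429 to 0.0874 FPKM in the other 5 libraries. Without Rb1_1 it was -0.39. Eomes, a T-box factor of NK and memory CD8 cells, was at 0.183, 0.429 and 0.118 FPKM in controls and 0.159, 0.0635 and 0.0457 FPKM with Rb1 (log2 fold change -1.43, edgeR adjusted p = 0.458), and the log2 fold change without CTR2 was -0.71. Its relative Tbx21, which drives type 1 responses, had -0.10 with values of 1.89, 1.59 and 0.657 FPKM in controls and 1.39, 0.833 and 1.48 FPKM with Rb1. Bcl11b, a commitment factor of T cells, was at 0.226, 0.412 and 0.130 FPKM in controls and 0.163, 0.0853 and 0.123 FPKM with Rb1. Bcl11b had a log2 fold change of -1.01 (edgeR adjusted p = 0.467), or -0.47 without CTR2, and the groups overlapped at Rb1_1 and CTR3. Tcf7 had -0.32 and Gata3, which directs type 2 cells, -0.26. Foxp3, the factor of regulatory T cells, had 14, 8 and 2 counts in controls and 6, 0 and 5 with Rb1, too few to test.

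Cytokine receptors included the gene with the smallest p-value of the 35. Il7r, the alpha chain of the receptor for interleukin-7, a survival factor of T cells and innate lymphoid cells, was at 5.89, 4.62 and 3.73 FPKM in controls and 1.93, 1.53 and 1.72 FPKM with Rb1. The lowest control lay above the highest Rb1 value, and the controls spread more widely than the Rb1 samples. Mean levels were 4.75 ± 1.09 and 1.73 ± 0.196 FPKM (SD, n = 3 each), 2.75-fold higher in controls. The log2 fold change, -1.41 (SE 0.17), missed the edgeR threshold adjusted over the 14093 genes (unadjusted p = 7.91e-05, adjusted p = 0.119). DESeq2 called it lower with all libraries (adjusted p = 1.28e-08) and without CTR2 (adjusted p = 2.08e-05, at a background of 1.13% lower and 0.246% higher). Leaving out each library in turn gave values between -1.54 and -1.26 and edgeR adjusted p between 0.0720 and 0.421. Il7r lies at chr15:9505788-9530176 on the minus strand and shares no exon position with another gene.

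Il2rg, which pairs with Il7r in the interleukin-7 receptor and is used by many leukocytes, did not overlap either, by a narrow margin. It was at 7.86, 8.85 and 6.0 FPKM in controls and 5.70, 4.87 and 5.62 FPKM with Rb1, so that CTR3 and Rb1_1 almost met. The log2 fold change was -0.44 (SE 0.16, edgeR adjusted p = 0.357) and -0.31 without CTR2, and its exons overlap the annotated gene Gm20489. Il2rb, the beta chain shared by the receptors for interleukin-2 and interleukin-15 on NK and CD8 cells, behaved like Lck instead. It was at 2.87, 4.60 and 1.65 FPKM in controls and 3.85, 0.729 and 1.22 FPKM with Rb1 (log2 fold change -0.64, or -0.19 without CTR2, edgeR adjusted p = 0.755). Rb1_1 held the next highest value after CTR2.

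Cytotoxic and NK genes were highest in CTR2 without exception among the 7 tested. Gzma, a serine protease of killer granules, was at 2.57, 3.64 and 1.39 FPKM in controls and 1.72, 0.785 and 0.897 FPKM with Rb1. Gzma had a log2 fold change of -1.12 (SE 0.43, edgeR adjusted p = 0.402), or -0.75 without CTR2. Gzmb, the granzyme that triggers apoptosis, was at 1.06, 3.97 and 1.10 FPKM in controls and 1.41, 0.0902 and 0.568 FPKM with Rb1 (-1.54, SE 0.84), and without CTR2 its value was -0.60. Nkg7, a granule membrane protein, was at 2.03, 3.91 and 0.681 FPKM in controls and 1.92, 0.607 and 1.25 FPKM with Rb1. Its value of -0.77 with all libraries became -0.04 without CTR2. Prf1, which encodes perforin, had -0.44. Klrk1, the activating receptor NKG2D, was at 0.464, 0.480 and 0.196 FPKM in controls and 0.217, 0.0923 and 0.215 FPKM with Rb1 (-1.06, edgeR adjusted p = 0.429). The NK receptors Ncr1, known as NKp46, and Klrb1c, known as NK1.1, had -0.70 and -0.46, with edgeR adjusted p of 0.694 and 0.691. The sources used here do not say how reads shared among granzyme or killer lectin receptor relatives were assigned.

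Other genes of the T cell receptor pathway, many of which other leukocytes use as well, had mostly negative values. Of 32 tested, 27 were negative against 48.7% of all tested genes (median -0.49, and -0.34 without CTR2), and 0 passed in edgeR. At an unadjusted p under 0.05, 12 were lower against a background of 7.54%, and 8 without CTR2 against 5.68%. In 10 of 32 the groups did not overlap and Rb1 was lower, against a background of 10.5%. DESeq2 called 5 lower against a background of 2.18%, and 1 without CTR2 against 1.13%. Those with small p-values included the exchange factor Vav1 (-0.88), the actin regulator Was (-0.61) and Coro1a (-0.77), with edgeR adjusted p between 0.198 and 0.199. Vav1 and Coro1a are also among the pan-leukocyte genes. Of 40 tested genes of the list of further T and NK lineage genes, 34 were negative (median -0.48), against 48.7% of all tested genes. Without CTR2 26 were negative (median -0.15), against 48.0%. The list summed to 696, 750 and 684 CPM in controls and 790, 770 and 687 CPM with Rb1. Its sum, in which abundant genes weigh most, was thus not lower with Rb1. In this list 0 passed in edgeR. At an unadjusted p under 0.05, 7 were lower and 1 was higher, against backgrounds of 7.54% and 4.01%. Without CTR2, 4 were lower and 2 were higher, against 5.68% and 2.64%. DESeq2 called 3 lower against 2.18%, or 1 without CTR2 against 1.13%. The smallest p-values were those of Slamf7, a receptor of NK cells and macrophages (-1.17), Sh2d1b1, an adaptor of NK cells (-1.68), Tyrobp, an adaptor of NK and myeloid receptors (-0.76), and the granzyme Gzmk (-2.94, or -2.20 without CTR2, on 0 to 39 counts). Receptor constant region genes such as Trac and Trbc1 were not analysed here.

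Pan-leukocyte and macrophage markers had lower sums with Rb1, in another order of libraries, while the sums of 2 other myeloid lists overlapped between groups. The 12 pan-leukocyte genes summed to 715, 758 and 573 CPM in controls and 430, 422 and 382 CPM with Rb1, so the groups did not overlap. All 12 had negative values, against 48.7% of all tested genes, with a median of -0.75 (-0.56 without CTR2). In 10 of 12 the groups did not overlap, against a background of 10.5% lower. These 10 are bound to be separate without CTR2 as well, and no other of the 12 joined them, at a background of 15% lower. DESeq2 called 7 of 12 lower against a background of 2.18%, and 1 of 12 without CTR2 against 1.13%. The 17 macrophage genes summed to between 2900 and 3420 CPM in controls and between 1750 and 2460 CPM with Rb1, with no gene at 0 in all 6 libraries, and the sum was lowest in Rb1_1. Dendritic cell genes summed to 114, 96.6 and 97.1 CPM in controls and 129, 95.7 and 107 CPM with Rb1, with 6 of 10 negative. Neutrophil and mast cell genes summed to 131, 113 and 105 CPM in controls and 67.4, 161 and 132 CPM with Rb1, with 3 of 9 tested negative. Without Il7r and Il2rg, the T and NK genes summed to 110, 146 and 55.7 CPM in controls and 101, 35.4 and 55.9 CPM with Rb1. Set against the pan-leukocyte sum of the same library, that was 15.4%, 19.3% and 9.72% in controls and 23.5%, 8.39% and 14.6% with Rb1. On this scale Rb1_1 was the highest library and Rb1_2 the lowest, and the groups overlapped.

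B cell and lymph node genes were read beside them, since fat depots can enclose lymph nodes. The 16 B cell genes summed to between 36.4 and 53.0 CPM in controls and between 23.8 and 30.7 CPM with Rb1. These sums did not overlap between groups. Of 11 tested, 8 were negative against 48.7% of all tested genes (median -0.37), and 6 without CTR2 against 48.0% (median -0.09). In edgeR 0 passed, and 3 were lower at an unadjusted p under 0.05 against a background of 7.54%. Groups were separate, with Rb1 lower, in 3 of 11 against 10.5%. DESeq2 called 2 lower against 2.18%, or 1 without CTR2 against 1.13%. Ms4a1, the B cell marker CD20, was at 0.118 FPKM or less in every library. Of 10 lymph node genes in the table, Glycam1 and Chst4 of high endothelial venules were at 0 counts in all 6 libraries, and Ccl21a had 2 to 22 counts. The list summed to between 52.5 and 107 CPM in controls and between 65.9 and 106 CPM with Rb1, and was lowest in CTR1. Its 4 tested genes were Cxcl13 (-0.17), Clu (0.16), Bst1 (-0.35) and Ltb (-0.51), with edgeR adjusted p between 0.636 and 0.972. Endothelial genes were highest in Rb1_1 for 5 of 5. The part of these cell types in the T and NK values was not tested.

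**Figure D4:**
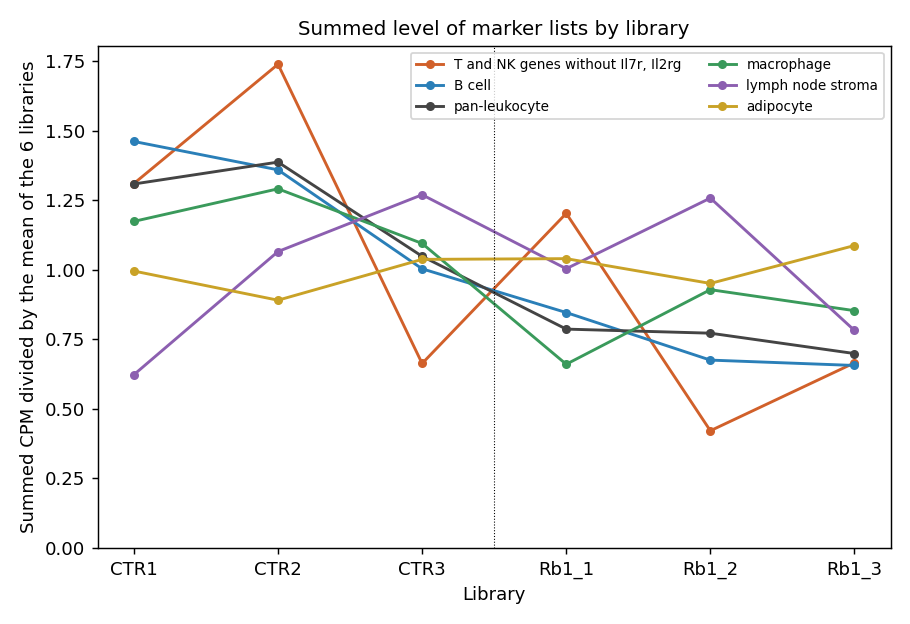
Summed CPM of 6 marker lists, each divided by its mean over the 6 libraries (y axis), by library (x axis, controls left of the dotted line). T and NK genes (orange) swing from CTR2 to Rb1_2 with another high value in Rb1_1, while the pan-leukocyte sum (black) is between 573 and 758 CPM in controls and between 382 and 430 CPM with Rb1.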

How the data were processed

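RNA sequencing of mouse white adipose tissue in 3 control and 3 Rb1 samples was analysed from 1 deposited table. CASAVA 1.8, TopHat2 2.0.6 and the build mm10 are named per the submitters' processing notes. Counting tool, annotation release, strand setting and filters: not given in the sources used here. Raw read counts per Ensembl gene, used for every test, and FPKM, used for levels, were deposited by the authors, per the file headers. Deposited FPKM matched counts scaled by 1 length per gene and by library total (13169 genes checked, largest relative spread 0.00984%). Of 22040 identifiers 21933 had a symbol. Positions are from GENCODE M21 (GRCm38). Of the 39 genes, 14 share exon positions with another gene.

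The test was edgeR 4.0.16 in R 4.3.3 (TMM, default filter with a minimum count of 10 and total of 15, quasi-likelihood test of Rb1 against control without covariates) on 14093 genes, with Benjamini-Hochberg adjustment at 0.05. Standard errors came from the F statistic, and the fit was tested on simulated data. DESeq2 1.42.0, RLE and upper-quartile scaling, 2 other filters, a replicate block and leaving out each library were alternatives. DESeq2 without CTR2 was added after seeing the data. Non-overlap was judged on FPKM. The smallest p an exact permutation test of 3 against 3 allows is 0.1. Values in every sample are given for the CD3 and coreceptor genes, Lck, Il2rb, Nkg7 and the 10 tested genes with the smallest p, and of other lists up to 4 genes by p, some of which are not reported here. Members and lists were chosen with earlier results of these data known. The labels do not say that replicates are separate mice, so the p-values reflect spread between samples, which may be technical. Floors and intervals cover counting error only.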

Additional observations from a re-analysis of the deposited data

How the results depend on the processing

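The count of genes called over the whole table was 1 in edgeR under both other scalings, both other filters and the replicate block, 1 to 4 when a library was left out, and 390 in DESeq2. Of the 35 to 39 T and NK genes tested, 0 passed under each of these edgeR settings and 1 (Il7r) passed in DESeq2, with all libraries and without CTR2. Without CTR2, DESeq2 gave no adjusted p for several of them, among them Cd3d, Cd5 and Gzmb, so these could not be called there. Their median log2 fold change lay between -0.78 and -0.70 under the other scalings, filters, the block and DESeq2, and between -1.29 and -0.40 when a library was left out. Of 420 single-gene values under the alternatives 405 kept direction and side of the threshold, 1 passed (Il7r in DESeq2) and 14, from 7 genes, changed sign. The changed signs were Cd2 with the replicate block (0.01) and, when libraries were left out, Cd2 (-0.39 to 0.23), Cd4 (-0.41 to 0.35), Cd7 (-0.68 to 0.12), Gata3 (-0.80 to 0.14), Lef1 (-0.39 to 0.89), Tbx21 (-0.43 to 0.15) and Zap70 (-0.77 to 0.14). The labels state no pairing by replicate number. Deviations of same-numbered samples correlated at 0.136, -0.109 and 0.018 for numbers 1, 2 and 3, and CTR3 correlated best with Rb1_2 (0.262). Such correlations cannot show whether same-numbered samples were handled together. With the replicate block, 4 of 35 genes had an unadjusted p under 0.05, against 7 without it. Over all 14093 tested genes the counts were 1495 with the block and 1628 without it. Cd3d rested on 0 to 25 counts per library and had an SE of 0.90 on the log2 scale; how much of such an SE is due to depth was not tested.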

Other observations

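The balance of the CD8 and CD4 coreceptors separated the groups within libraries, a ratio chosen after the values were seen. Reads of Cd8a made up 47.6%, 52.8% and 54.8% of the reads of Cd8a and Cd4 together in CTR1, CTR2 and CTR3, and 33.6%, 32.4% and 32.5% in Rb1_1, Rb1_2 and Rb1_3. These shares are not corrected for gene length. By FPKM, Cd8a over Cd4 was 0.585, 0.721 and 0.781 in controls and 0.326, 0.309 and 0.311 with Rb1. Cd8a thus lay below Cd4 in every library on that scale. The exact Clopper-Pearson 95% interval was 46.4% to 59.1% in CTR2, on 250 reads, and 18.0% to 49.8% in Rb1_2, on 37 reads. Means were 51.7% ± 3.72 and 32.8% ± 0.666 (SD, n = 3 each). The two-sided exact permutation p was 0.1, the smallest that 3 against 3 allows and the value that any full separation gives. It is therefore no test of a ratio chosen because it separated. The ratio does not depend on library scaling. Its separation without CTR2 follows from that over all 6 libraries and is no further support. There were 561 pairs among the tested T and NK genes with reads in every library. Of these, 129 (23.0%) had ratios that did not overlap between groups, so the separation of this pair is not rare in the list. The pairs include those of Il7r, Il2rg and Cd8b1, whose own groups did not overlap. The share among pairs of all tested genes was not computed.

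Il7r ranked the libraries as CTR1, CTR2, CTR3, Rb1_1, Rb1_3 and Rb1_2 from high to low. The order was taken from Il7r itself, and no other of the 35 tested T and NK genes had it. Over all tested genes 157 of 14093 (1.11%) had this order. Among the 17 macrophage genes 2 had the same order, Itgax and Trem2, which were looked for after their values were seen. Itgax, the integrin CD11c, was at 17.3, 13.2 and 11.7 FPKM in controls and 5.06, 4.09 and 4.75 FPKM with Rb1. Trem2, a lipid-sensing receptor, was at 9.70, 6.87 and 4.74 FPKM in controls and 2.89, 2.11 and 2.66 FPKM with Rb1. Which cells of the tissue held the Il7r transcripts was not tested.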
